A study of Mus musculus with 12 samples.

Results

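Interleukin-7 (Il7) was followed through its mRNA probe (ASMM10AP1B100158502V4), 1 of the 60641 probes of a mouse lncRNA and mRNA array, in primary mouse aortic smooth muscle cells (MASMC). The gene was chosen because its probe was far higher after Oct4 knockdown in vehicle-treated cells, so that difference is given as a description without a test. Each array holds 1 spot of the probe, and 12 arrays in 4 groups of 3 were compared. In the siNT-DMSO group, cells received a pool of non-target siRNA for 48 h in serum-free medium and then DMSO, the vehicle, for 24 h. The siNT-POVPC group received the same non-target siRNA and then 10 µg/mL of POVPC, an oxidized phospholipid found in atherosclerotic lesions, for 24 h. The siOCT4-DMSO and siOCT4-POVPC groups received siRNA against Oct4, the pluripotency transcription factor encoded by Pou5f1, followed by DMSO or POVPC in the same way. All groups thus shared siRNA transfection and serum-free culture, and the knockdown was transient. No probe for Pou5f1 could be named here, so the knockdown was not checked on the arrays. The study reported a check of it by quantitative RT-PCR, which is not part of these values. The sources used here do not state whether the 3 replicates of a group came from separate cultures, and p-values then measure only the spread between these samples.

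IL-7 is a cytokine made by stromal and epithelial cells, above all in bone marrow, thymus and lymph nodes. It binds a receptor built from the IL-7 receptor alpha chain and the common gamma chain, which signals through JAK1, JAK3 and STAT5 and through PI3K, and it is required for the survival and expansion of developing and resting lymphocytes. Vascular smooth muscle cells are not among its classical sources.

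Il7 was even over the siNT arrays and far higher in the siOCT4 cells, whichever treatment followed. On the quantile-normalized log2 intensity scale, the siNT-DMSO arrays gave 8.76, 8.50 and 8.90, and the siNT-POVPC arrays gave 8.77, 8.93 and 8.71. The siOCT4-DMSO arrays gave 12.28, 12.75 and 13.51, and the siOCT4-POVPC arrays gave 13.36, 13.41 and 13.81. Every siOCT4 array lay above every siNT array, while the 2 siNT groups overlapped each other and the 2 siOCT4 groups overlapped each other. The group means were, from lowest to highest, siNT-DMSO (8.72 ± 0.20, SD, n = 3), siNT-POVPC (8.80 ± 0.11), siOCT4-DMSO (12.85 ± 0.62) and siOCT4-POVPC (13.53 ± 0.25). Of the neighbours in this order, only siNT-POVPC and siOCT4-DMSO did not overlap. The probe was well above background on all 12 arrays, with a scanned signal between 15.6 and 30.7 times its local background in siNT cells and between 287 and 975 times in siOCT4 cells. It was neither saturated nor marked as an outlier on any array. In such bulk samples, more cells that make a transcript and more RNA per cell cannot be told apart.

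**Figure D1:**
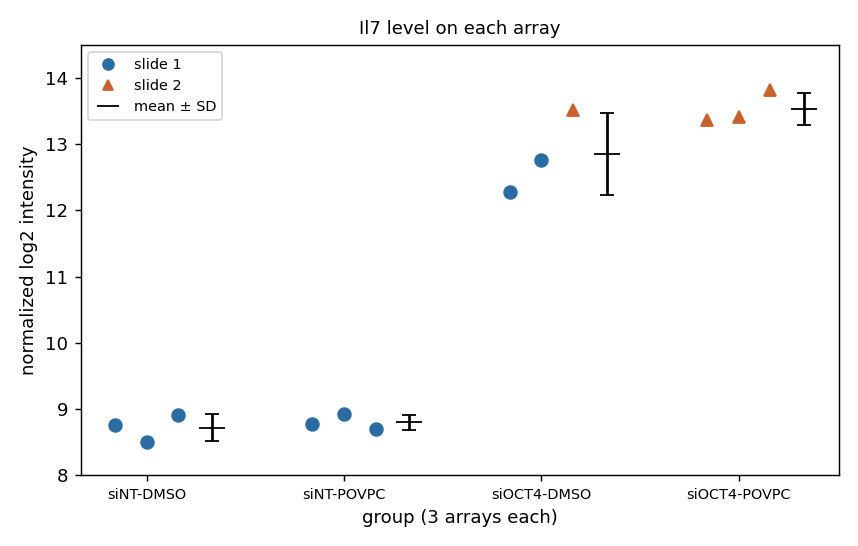
Normalized log2 intensity of the Il7 probe on each of the 12 arrays (points) and the mean ± SD of each group of 3. Shape and colour give the slide, that is, the set of arrays with the same scan date. The 6 siNT arrays lie between 8.50 and 8.93 and the 6 siOCT4 arrays between 12.28 and 13.81.

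The knockdown question was tested on the POVPC-treated cells, whose levels did not choose the gene, with the spread estimated over all 12 arrays, those in DMSO included. Earlier results of these data were known when this test was chosen, so its p-value is not fully independent of that choice. Il7 was 4.73 higher on the log2 scale in siOCT4-POVPC than in siNT-POVPC (SE 0.27, 95% confidence interval 4.13 to 5.32), a fold change of 26.4 (17.5 to 40.0). In these cells the siRNA groups lay on different slides, here meaning sets of arrays with the same scan date. Slide and siRNA thus cannot be told apart in this comparison. With slide as a block in the fit the difference was 3.74, or 13.3-fold, below that interval. Without that block, the adjusted p was 3.90e-06 in limma with Benjamini-Hochberg adjustment over all tested probes. Il7 was higher in 3 of 3 siOCT4-POVPC arrays than in any siNT-POVPC array, with 4.43 log2 units between the groups. In a fit of the POVPC-treated groups alone, on values normalized over all 12 arrays, the same difference had an SE of 0.16 and an adjusted p of 8.59e-05. As background, 6.67% of all 20625 tested mRNA probes passed as higher in this comparison (adjusted p under 0.05 and at least 1.5-fold), 3.49% were called lower, and 18.3% had all 3 siOCT4-POVPC arrays above all 3 siNT-POVPC arrays. These calls were 1376 higher and 719 lower, and with each array scaled to its 75th percentile instead they were 1221 higher and 2616 lower, with Il7 among the higher. The median mRNA probe differed by −0.08, and the median absolute difference was 0.339. Il7 ranked 2 of the 20625 by the size of its rise and 1 of the 923 mRNA probes with a gene name, most of them listed by the study for a change with POVPC in siNT cells, the next being Cers3, a ceramide synthase, at 3.75. An exact two-sided permutation test of 3 against 3 arrays cannot go below 0.1, which is the value it gives here.

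In DMSO, the comparison that chose the gene, the difference was 4.12 on the log2 scale (SE 0.27), a fold change of 17.4, with 3.38 log2 units between the lowest siOCT4-DMSO array and the highest siNT-DMSO array. As background to this description, 3.85% of the mRNA probes were called higher in siOCT4-DMSO and 9.71% did not overlap in that direction. Il7 ranked 2 of 20625 mRNA probes here too. The knockdown difference in POVPC exceeded that in DMSO by 0.60 (SE 0.38), from 0.32 to 0.93 with 1 array left out, but was below it, at −0.059, with slide as a block. This value and those for POVPC against DMSO below use the arrays that chose the gene and were not tested.

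Differences in Il7 between POVPC and DMSO were small beside those between the siRNAs. In siNT cells the level with POVPC was 0.08 higher than with DMSO (SE 0.27), with overlapping groups, and with 1 array left out it ran from −0.03 without siNT-DMSO replicate 2 to 0.17 without siNT-DMSO replicate 3. In siOCT4 cells it was 0.68 higher (SE 0.27), a fold change of 1.60, again with overlapping groups. It ran from 0.40 without siOCT4-DMSO replicate 1 to 1.01 without replicate 3, and was 0.020 with slide as a block. The siOCT4-DMSO group had the widest spread, and its replicate 3 lay above 2 of the 3 siOCT4-POVPC arrays.

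The normalization bears on these values. Before it, the processed signal of the probe, an intensity after the scanner software's background subtraction, was 390, 277 and 340 in siNT-DMSO and 591, 540 and 511 in siNT-POVPC. The siNT-POVPC signals were thus all higher, 1.64 times by their geometric means, but the 75th percentile of all probes was also 1.53 times higher on those arrays, and after normalization the ratio was 1.06. The siOCT4 signals were 5372, 6661 and 15233 with DMSO and 9841, 10846 and 14225 with POVPC. Before normalization the geometric mean in siOCT4 cells was 24.6 times that in siNT cells in DMSO and 21.04 times in POVPC, and after it the same ratios were 17.4 and 26.4.

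The arrays fell into 2 sets by the scan date in their scanner headers, called slides here, and slide moved with the siRNA in POVPC. No slide label was used. Slide 1 held all siNT arrays and siOCT4-DMSO replicates 1 and 2, and slide 2 held siOCT4-DMSO replicate 3 and all siOCT4-POVPC arrays. The siOCT4-DMSO group is thus the link between the slides. In that group the array on slide 2 was 0.99 higher than the mean of the 2 on slide 1. Within slide 1, the 2 siOCT4-DMSO arrays were 3.79 above siNT-DMSO, a 13.9-fold difference, and 3.72 above siNT-POVPC. Within slide 2, siOCT4-POVPC was 0.020 above the siOCT4-DMSO array. With slide as a block, the knockdown difference of 3.74 in POVPC had an SE of 0.34, and POVPC against DMSO in siOCT4 cells was 0.020. This fit estimates the slide from the 3 siOCT4-DMSO arrays, which also chose the gene, and is therefore given without a p-value. The siOCT4-POVPC arrays also had the fewest probes well above background, 49015 to 49472 against 51223 to 55326 on the others, whose part in the result was not tested.

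**Figure D2:**
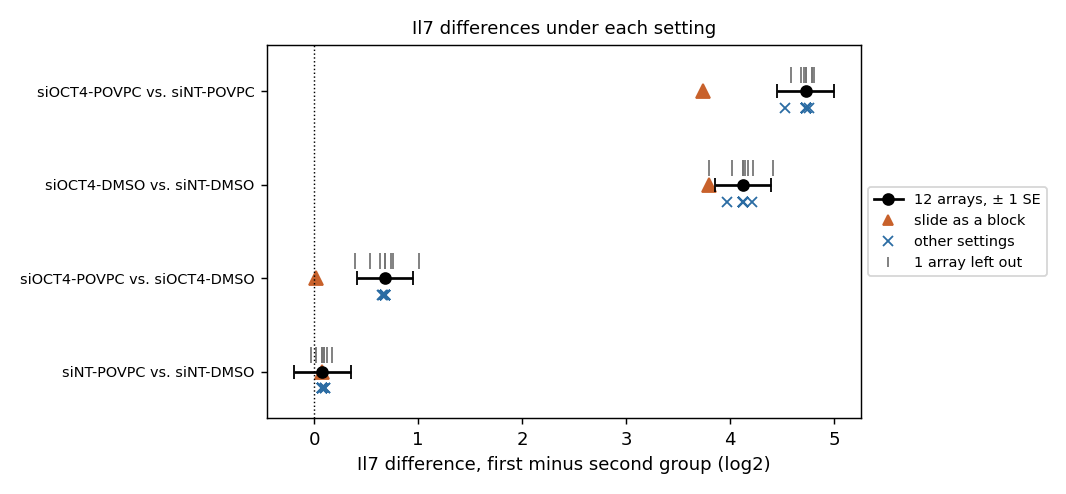
Il7 difference in log2 units, first minus second group, for the 4 comparisons of groups, with 1 SE either side in the fit of 12 arrays (black), the value with slide as a block (triangle), the other settings (crosses) and the values with 1 array left out (ticks). Both knockdown differences stay above 3.7, while POVPC against DMSO in siOCT4 cells moves from 0.68 to 0.020 with slide as a block.

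The Il7 transcript of the probe (ENSMUST00000194184) is read from the minus strand and lies on chromosome 3, between 7573127 and 7612893 in the coordinates of the study's tables. They fall inside the Il7 gene of the GRCm38.p6 table of RefSeq, which spans 7572028 to 7613760. A lncRNA, Gm16685 (ENSMUST00000181286, probe ASMM10LNC1A100084761V4), runs from 7612705 to 7690001 on the plus strand, so the transcripts start head to head and share 189 bases at their 5′ ends. The study's annotation classes Gm16685 as a natural antisense RNA of Il7. Of the 19 RefSeq genes within 1 Mb of Il7, 5 are protein-coding (1700008P02Rik, Pkia, Zc2hc1a, Il7 and Stmn2), and only Il7 and Gm16685 had a named probe, so the other neighbours were not analysed here.

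**Figure D3:**
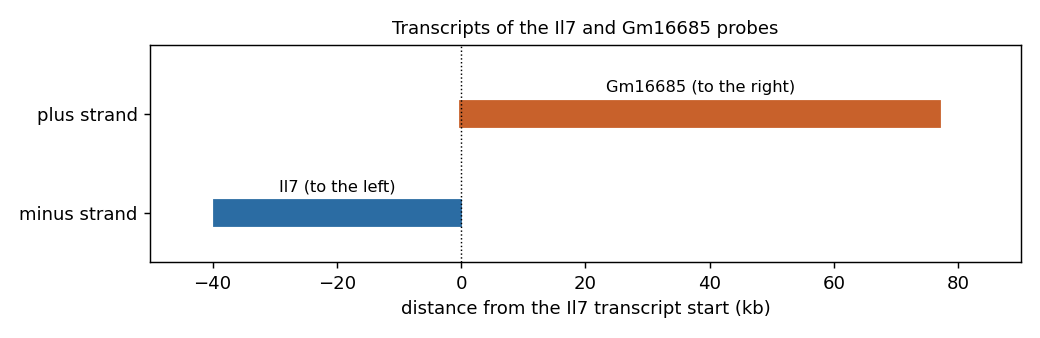
Extent of the Il7 and Gm16685 transcripts, with the distance in kb from the Il7 transcript start on the horizontal axis and the strand on the vertical axis. Il7 is read to the left and Gm16685 to the right, and they overlap by 189 bases at the dotted line.

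Gm16685 was highest in siNT-DMSO and lower in the other 3 groups. Its levels were 11.03, 11.35 and 11.73 in siNT-DMSO and 10.76, 10.68 and 9.84 in siNT-POVPC. They were 10.78, 9.82 and 10.07 in siOCT4-DMSO and 9.96, 9.78 and 9.80 in siOCT4-POVPC. The siNT-DMSO arrays lay above all others, while each of the remaining groups overlapped its neighbours. In the POVPC-treated cells Gm16685 differed by −0.58 between siOCT4 and siNT (SE 0.30, 95% confidence interval −1.24 to 0.08, adjusted p 0.242), which did not pass the test, and the groups overlapped. In DMSO, the comparison for which the study listed it, the difference was −1.14 with no overlap, where 14.1% of lncRNA probes did not overlap in that direction. POVPC against DMSO in siNT cells gave −0.94 for Gm16685 beside 0.08 for Il7 on the same arrays. The Gm16685 arrays did not overlap there, as for 10.6% of lncRNA probes in that direction. Across the 12 arrays Gm16685 and Il7 had a Pearson r of −0.70 and a Spearman rho of −0.64. This describes arrays that fall into a lower and a higher Il7 cluster and is not a test.

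**Figure D4:**
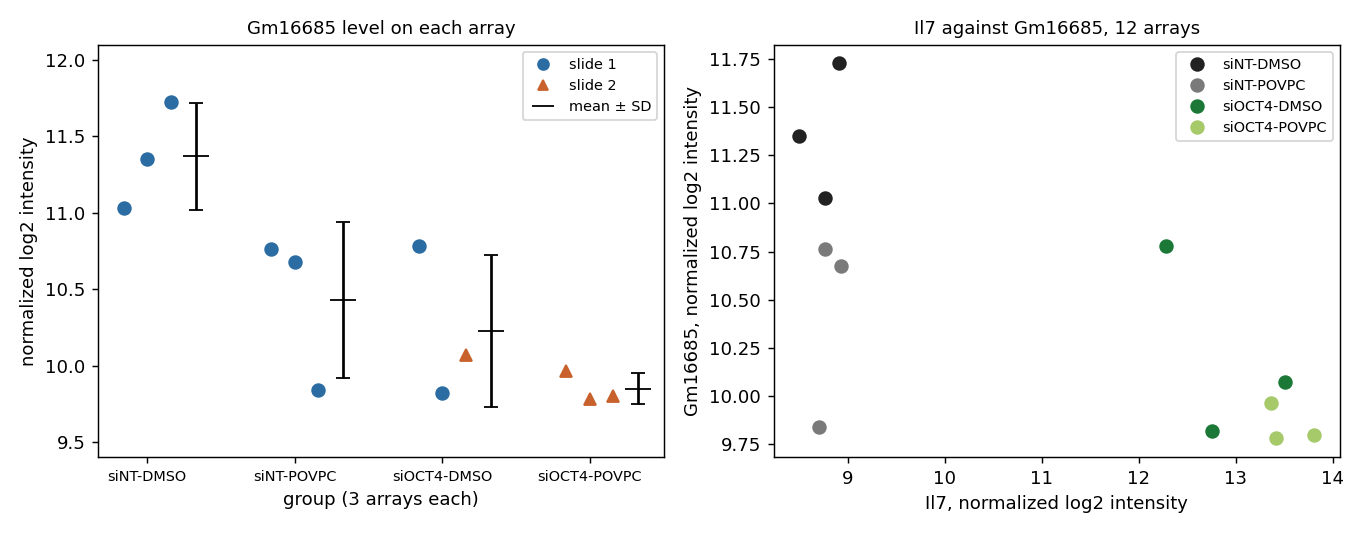
Left, normalized log2 intensity of Gm16685 on each array by group, with slide and mean ± SD. Right, Gm16685 against Il7 on the same 12 arrays, where siNT-POVPC has an Il7 level like that of siNT-DMSO and a Gm16685 level between 9.84 and 10.76.

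The named probes whose pattern was most like that of Il7 over the 12 arrays were Gm16152 (r = 0.993), Gm15589 (0.9897), Kcnq1 (0.987), Gm28821 (0.984), uc.7 (0.982) and Tfap2a (0.982). They are given as descriptions, since all were picked by this likeness, and the arrays share the split by siRNA. Group means of Gm16152, a lncRNA, were 5.86 and 5.73 in siNT cells with DMSO and POVPC, and 7.47 and 7.92 in siOCT4 cells with DMSO and POVPC. The next means are given in the same order. Gm15589, a lncRNA within the potassium channel gene Kcnh2 on the opposite strand, followed the same order as Il7, with 10.997, 11.17, 13.47 and 14.02. Kcnq1, which encodes another voltage-gated potassium channel, had means of 6.53, 6.35, 8.00 and 8.48. The lncRNA Gm28821 lies on chromosome 7 from 143135031 to 143140608 on the minus strand, inside Kcnq1 on the plus strand, and its means were 7.49, 6.998, 11.24 and 11.28. For uc.7, a lncRNA probe within Casz1 on the opposite strand, they were 5.76, 5.49, 8.51 and 8.71. Tfap2a, which encodes the transcription factor AP-2 alpha, had 5.23, 5.01, 6.32 and 6.63. These 6 probes map to chromosomes 1, 5, 7, 4 and 13 and none lies near Il7. The difference between siOCT4-POVPC and siNT-POVPC ranged among them from 1.62 for Tfap2a to 4.28 for Gm28821, against 4.73 for Il7.

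The least alike were Actr3b (r = −0.946), Rasgef1b (−0.924), the lncRNA 4930579O11Rik (−0.906) and Olfr1493-ps1 (−0.901). Actr3b, a relative of the actin-related protein ARP3, had group means of 8.84, 7.88, 5.10 and 5.20 in that order. Rasgef1b, a guanine nucleotide exchange factor, moved over a narrower range, with 7.29, 7.04, 6.67 and 6.34. Olfr1493-ps1, an olfactory receptor pseudogene, reached 3 arrays well above background in siNT-DMSO, 2 in siNT-POVPC and none in siOCT4 cells. Among the 1313 other named probes tested, 27 had an r above 0.9 and 4 below −0.9. Among all 54506 probes tested, 1445 had an r above 0.9 and 41 above 0.99, while 325 had an r below −0.9. A profile like that of Il7 was thus shared by many probes.

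**Figure D5:**
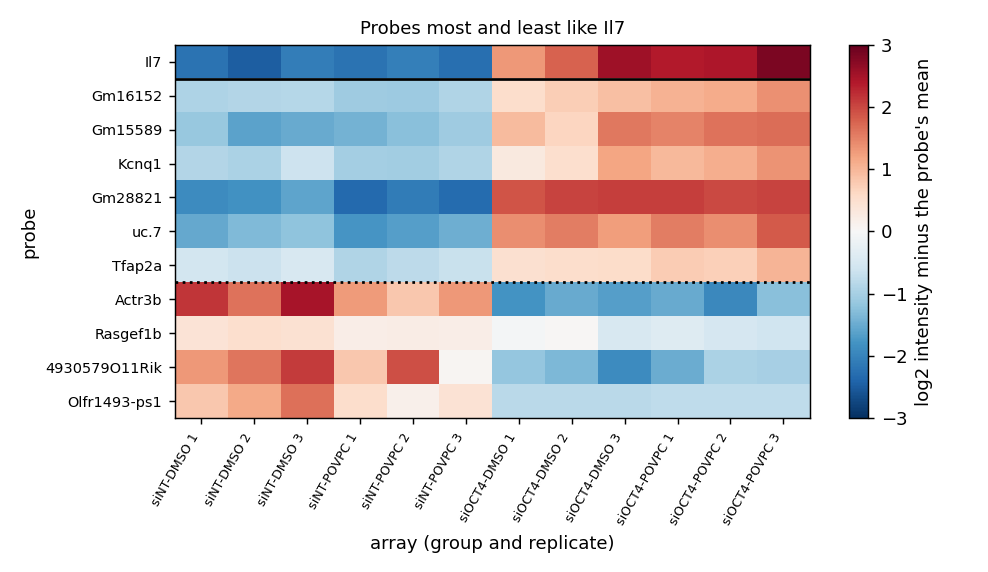
Log2 intensity of Il7 and of the named probes most and least like it, each centred on its own mean over the 12 arrays (columns, by group and replicate). Il7 and the 6 most alike are higher on the siOCT4 arrays, and the 4 least alike are lower there.

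Few genes of the IL-7 pathway could be followed, because only 1314 probes could be named and most of those were listed by the study for their change. Of 18 pathway genes (the receptor chains, JAK and STAT proteins, SOCS inhibitors, BCL2 family members and PI3K subunits), only Pik3r1 had a named probe, and none of the 5 other common gamma chain cytokines had. Pik3r1, the regulatory subunit of PI3K, had means of 7.39 ± 0.56 (SD, n = 3) and 7.45 ± 0.40 with DMSO and of 8.54 ± 0.31 and 8.56 ± 0.17 with POVPC, in siNT and siOCT4 cells respectively. Its knockdown differences were 0.06 in DMSO and 0.01 in POVPC (SE 0.29 for both, adjusted p 0.928 and 0.983). Its differences between POVPC and DMSO were 1.15 in siNT cells and 1.103 in siOCT4 cells, which did not pass either (adjusted p 0.160 and 0.241), and the study listed it for the former. The receptor genes Il7r and Il2rg, and with them any receiving cell, were not analysed here.

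The other cytokine, chemokine and receptor genes with a named probe were 13 in number. In siOCT4-POVPC against siNT-POVPC, 0 of 13 were called higher and 0 lower, where 6.67% of all mRNA probes were called higher and 3.49% lower, so a count of 0 among 13 lies near the background share. Their median difference was −0.21 beside −0.08 over all mRNA probes. In siOCT4-DMSO against siNT-DMSO, 0 were called higher and 4 lower, with a median of −0.87 beside −0.06, where 3.85% of all mRNA probes were called higher and 1.98% lower. Of these genes, Il1rap was listed by the study for its change with knockdown in DMSO and the other 12 for a change with POVPC in siNT cells. The latter comparison shares its siNT arrays with both knockdown comparisons, so the directions and p-values of these genes, and of the interferon-response and cell type genes below, listed in the same way, are not independent evidence. The chemokine Ccl5, which attracts T cells, lay between 12.91 and 13.05 on the siNT-DMSO arrays, and its means were 11.10 ± 0.42 (SD, n = 3) with siNT-POVPC, 10.51 ± 1.06 with siOCT4-DMSO and 11.14 ± 0.35 with siOCT4-POVPC. It fell by 2.49 with knockdown in DMSO (SE 0.43, adjusted p 0.00576) and differed by 0.03 in POVPC (adjusted p 0.970). Its siOCT4-DMSO arrays gave 10.86, 11.35 and 9.33, the last on slide 2, so the size of that fall depended on this array. Cxcl10, an interferon-induced chemokine, was well above background on 3 of 3 siNT-DMSO arrays, 1 of 3 siOCT4-DMSO arrays and no array with POVPC, and was 1 of the 4 called lower in DMSO (adjusted p 0.0154). It passed the filter on dim probes only through siNT-DMSO, where it was high, and was listed for being lower than in that group, so this call was largely fixed by how the gene came to be tested and named. Il18rap, an IL-18 receptor subunit, fell by 0.80 in DMSO (SE 0.19, adjusted p 0.0272), and Tnfrsf18, the receptor GITR, fell by 0.87 (SE 0.20, adjusted p 0.0263). Csf2, the granulocyte and macrophage growth factor GM-CSF, had 15.15 ± 0.66, 11.49 ± 1.49, 12.61 ± 1.48 and 10.64 ± 0.06 in the 4 groups. Its knockdown differences of −2.54 in DMSO and −0.86 in POVPC did not pass (adjusted p 0.0752 and 0.512). Single arrays weighed on the size of both, since siOCT4-DMSO gave 12.58, 14.10 and 11.14 and siNT-POVPC gave 10.48, 10.79 and 13.20. The remaining 8 (Ccl20, Ccr3, Il15ra, Il17c, Il1rap, Il31ra, Tnfrsf14 and Tnfsf4) passed in neither comparison.

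Of 13 interferon-response genes, Isg15 and Cxcl10 had a named probe. Isg15, a ubiquitin-like protein induced by type I interferon, fell by 1.34 with knockdown in DMSO (SE 0.21, adjusted p 0.00365) and differed by −0.36 in POVPC (SE 0.21, adjusted p 0.307).

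The cell type was checked on the few markers with a name. Of 10 smooth muscle markers, Tagln (SM22 alpha) and Smtn (smoothelin) had a named probe, while Acta2, Myh11 and Cnn1 were not analysed here. Smtn was well above background on 12 arrays and Tagln on 11, but both probes were dim. Their mean processed signals were highest in siNT-DMSO, at 39.4 for Tagln and 37.7 for Smtn. The median over all probes was 68.7 or more on each array. Tagln fell by 0.79 with knockdown in DMSO (SE 0.19, adjusted p 0.0317). Its mean signal in siOCT4-DMSO was 24.4, so the size of this fall is uncertain. Tagln differed by −0.35 in POVPC (adjusted p 0.259), and Smtn passed in neither. Of 4 fibroblast markers, Pdgfra was 1.73 higher in siOCT4-POVPC than in siNT-POVPC (SE 0.24, adjusted p 0.00120), but only 1 of 3 siNT-POVPC arrays was well above background against 3 of 3 siOCT4-POVPC arrays, with mean processed signals of 11.1 and 16.5, so the size of this difference is uncertain. Dpt differed by −0.83 (adjusted p 0.199). In DMSO the knockdown differences were 0.70 for Pdgfra (adjusted p 0.114) and 1.03 for Dpt (adjusted p 0.140), neither of which passed. Pdgfra was listed for being lower in siNT-POVPC than in siNT-DMSO, and the siNT-POVPC arrays enter this comparison too. The part of these genes in the Il7 result was not tested. None of the 7 immune, 4 endothelial or 4 lymphoid stroma markers had a named probe, so other cells that can make IL-7 were not looked for.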

How the data were processed

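RNA of 12 MASMC samples was hybridized to single-colour Agilent-format lncRNA arrays. The authors deposited Agilent Feature Extraction 11.0.1.1 output, in which the intensity of each spot is given after background subtraction, with a table of log2 values that had been quantile normalized. From the intensities, outlier spots were set to missing, values under 5 were set to 5, and quantile normalization over the 12 arrays followed on the log2 scale. The fit took probes that 3 or more arrays showed well above background (54506, of which 20625 mRNA) into limma 3.58.1 in R 4.3.3, with 4 group means. The Benjamini-Hochberg adjustment covered all of these probes.

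Probes were named from the supplementary tables, 1155 by probe name and 159 by matching, at 4 significant digits, the listed p-value and fold to those of the methods' t-test on the deposited log2 values. These 159 include Gm16685. In 49 of 49 probes that could be checked, the symbols were the same. The authors' p-values and fold changes were used for nothing else. The transcripts' coordinates are those of these tables, since the scanner headers name another build.

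Il7, the gene lists and the tests were chosen with earlier results of these data known. The rule named Il7, Gm16685, named probes within 1 Mb, all list members with a name, and the 6 named probes with the highest and 4 with the lowest r with Il7. A planned search of the Il7 promoter for motifs was not run. On simulated data for siOCT4-POVPC vs. siNT-POVPC over 54506 probes, 159 of 200 probes changed by 2 on the log2 scale were recovered, with 12 false calls. Replicates of a group correlated with an r of 0.953 to 0.993. The 50 probes printed 10 times on an array had a median SD between spots of 0.048 to 0.10 log2 units, and the 12 arrays limit the precision. Alternatives were another scaling, background correction, floor, filter, variance model and set of samples, the deposited log2 values, the methods' t-test, slide or replicate as a block, and leaving out each array.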

Additional observations from a re-analysis of the deposited data

How the results depend on the processing

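The rise of Il7 in siOCT4-POVPC against siNT-POVPC kept its direction and its call in all 22 alternatives other than slide as a block, with 4.53 to 4.76 log2 units and adjusted p from 2.88e-06 to 0.00598 over the settings, and 4.58 to 4.81 with each array left out. With slide as a block it was 3.74, given without a test since that fit rests on the arrays that chose the gene. In the methods' t-test the adjusted p was 0.00598. Gm16685 did not pass this comparison in any alternative, with −0.58 to −0.35 over the settings and −0.87 to −0.41 with each array left out. With slide as a block, Il7 in siOCT4-POVPC against siOCT4-DMSO moved to 0.020 and the knockdown difference in POVPC minus that in DMSO to −0.059. With each array left out the former ran from 0.40 to 1.01 and the latter from 0.32 to 0.93. The number of mRNA probes called depended more on the settings. It was 2095 (1376 higher and 719 lower), 3837 with 75th percentile scaling (1221 higher and 2616 lower), 1201 with normexp, 3647 with slide as a block, 3280 with only the 2 groups and 3652 at the unadjusted p of the methods' t-test. It ran from 976 to 2899 with 1 array left out, and was 1153 and 1280 without siNT-POVPC replicates 1 and 2, and 1194, 1242 and 976 without siOCT4-POVPC replicates 1, 2 and 3. The 75th percentile scaling put the median mRNA probe at −0.24 in place of −0.08. The cause of these shifts was not tested. Same-numbered siOCT4 and siNT samples deviated with an r of 0.072, 0.078 and 0.097 in POVPC and of 0.15, 0.36 and −0.0081 in DMSO (replicates 1, 2 and 3), so not every pair passed 0.1 and the numbers were not taken as pairs. With replicate as a block Il7 differed by 4.73 (adjusted p 2.52e-05) and 1907 mRNA probes were called.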

Other observations

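The only mRNA probe with a larger rise than Il7 in siOCT4-POVPC against siNT-POVPC was ASMM10AP1B100016490V4, which could not be named here and rose by 6.90 on the log2 scale (adjusted p 8.25e-10 in limma). It also had the largest difference of all mRNA probes in siOCT4-DMSO against siNT-DMSO, at 6.67. It was singled out after its values were seen.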
